A study of Homo sapiens with 4 samples.

Results

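The spliceosome core genes were followed as a set of 49 genes, chosen by symbol and headed by PPIL1, a cyclophilin of the spliceosome. All 49 symbols were found among the 16504 gene symbols of the deposited table, and all 49 were among the 10968 genes tested. RNA-seq had been performed on 4 libraries of a cell line labelled NB4, a human acute promyelocytic leukemia line. In 2 of them, the control libraries, CEBPG was present, and in the other 2, the knockdown libraries, CEBPG had been silenced. Per the study methods, short hairpin RNAs (shRNAs) were delivered with a lentiviral vector and infected cells were selected with puromycin, and the control cells carried a control shRNA. The titles of both knockdown libraries carry the number 3 after the gene name. The methods of the study list 3 hairpins against CEBPG, numbered in order, so both libraries may carry the same hairpin, although the labels do not say so. Nothing states that the libraries of a group came from separate cultures. The p-values therefore measure the spread between these libraries, which may be technical. Because the RNA was from bulk cells, fewer cells of a type and less RNA per cell cannot be told apart.

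CEBPG, the silenced transcription factor, was at 17.1 and 18.1 FPKM (a read density, in which fragments are divided by exon length and library size) in controls and 6.91 and 7.96 FPKM after knockdown. Its log2 fold change was -1.14 (limma, adjusted p = 0.000836). Markers of the labelled cell line were checked. Of 14 myeloid markers 13 were found, 8 of them stayed under 1 FPKM in every library, and their summed level was 51.9 and 52.0 FPKM in controls and 56.3 and 56.9 FPKM after knockdown. PRTN3, a protease of promyelocyte granules, was at most 0.188 FPKM. The myeloid markers over 10 FPKM in every library were 2, LYZ (15.0 to 20.1 FPKM) and SPI1 (15.2 to 17.2 FPKM). Of 12 erythroid markers 11 exceeded 10 FPKM in every library, and their summed level was 8263 and 7794 FPKM in controls and 9254 and 8669 FPKM after knockdown. SLC4A1 was the erythroid marker under 1 FPKM. Most of these values go against the label NB4, their part in the results below was not tested, and the cells are called here by their label. FPKM summed to between 345340 and 366139 per library.

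The spliceosome removes introns from pre-mRNA and is assembled anew on every intron from small nuclear ribonucleoproteins (snRNPs). The U1 snRNP binds the 5′ splice site, U2AF and the U2 snRNP recognise the 3′ splice site and the branch point, and the U4/U6.U5 tri-snRNP then joins. The PRP19 complex enters as U4 leaves and the catalytic centre forms. Each snRNP except U6 is built on a ring of Sm proteins, U6 carries a ring of LSM proteins, and SR proteins mark exons. Several splicing factor genes are recurrently mutated in myeloid neoplasms.

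To address how the core spliceosome genes responded to CEBPG silencing, the 2 knockdown libraries were compared with the 2 control libraries. PPIL1 fell to 39.5% of its control level, and most other core genes differed little between the groups. Of the 49 genes, 6 were downregulated (PPIL1, SNRPD1, PRPF38A, SRSF1, SNRPD2 and SRSF2) and 1, SF3B4, was upregulated at an adjusted p under 0.05 (limma). Called members thus made up 14.3%, against 20.9% of all tested genes. Lower calls made up 12.2% of members against 9.99% of all tested genes, and higher calls 2.04% against 10.9%. PPIL1 was put in the set with its earlier value known. Without it, 12.5% of the other 48 genes were called, 10.4% lower and 2.08% higher, and their median log2 fold change was -0.045. The median log2 fold change of the 49 genes was -0.052, against 0.015 for all tested genes, and the median absolute change was 0.10 against 0.15. The groups did not overlap in 31 of the 49 genes (63.3%), with knockdown below control in 21 and above it in 10, while 64.8% of all tested genes had such groups, 30.5% below and 34.3% above. For each of the 42 genes that were not called, the 95% confidence interval of the log2 fold change lay between -0.5 and 0.5. These 42 values ranged from -0.22 to 0.21. Levels of the 49 genes had a median of 58.6 FPKM, and 12 genes were over 100 FPKM in every library.

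The number of called members depended on scaling and on single libraries. It was 13 with median-ratio scaling and 14 with columns brought to one sum, where 11 and 12 were lower and 2 were higher, while 24.6% and 24.4% of all genes were called. It was 3 without knockdown 1 and 4 without knockdown 2, while the share of called genes in the whole table was 7.39% and 7.90%. The median of the members was -0.014 without control 1, and that of all genes was 0.039.

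**Figure D1:**
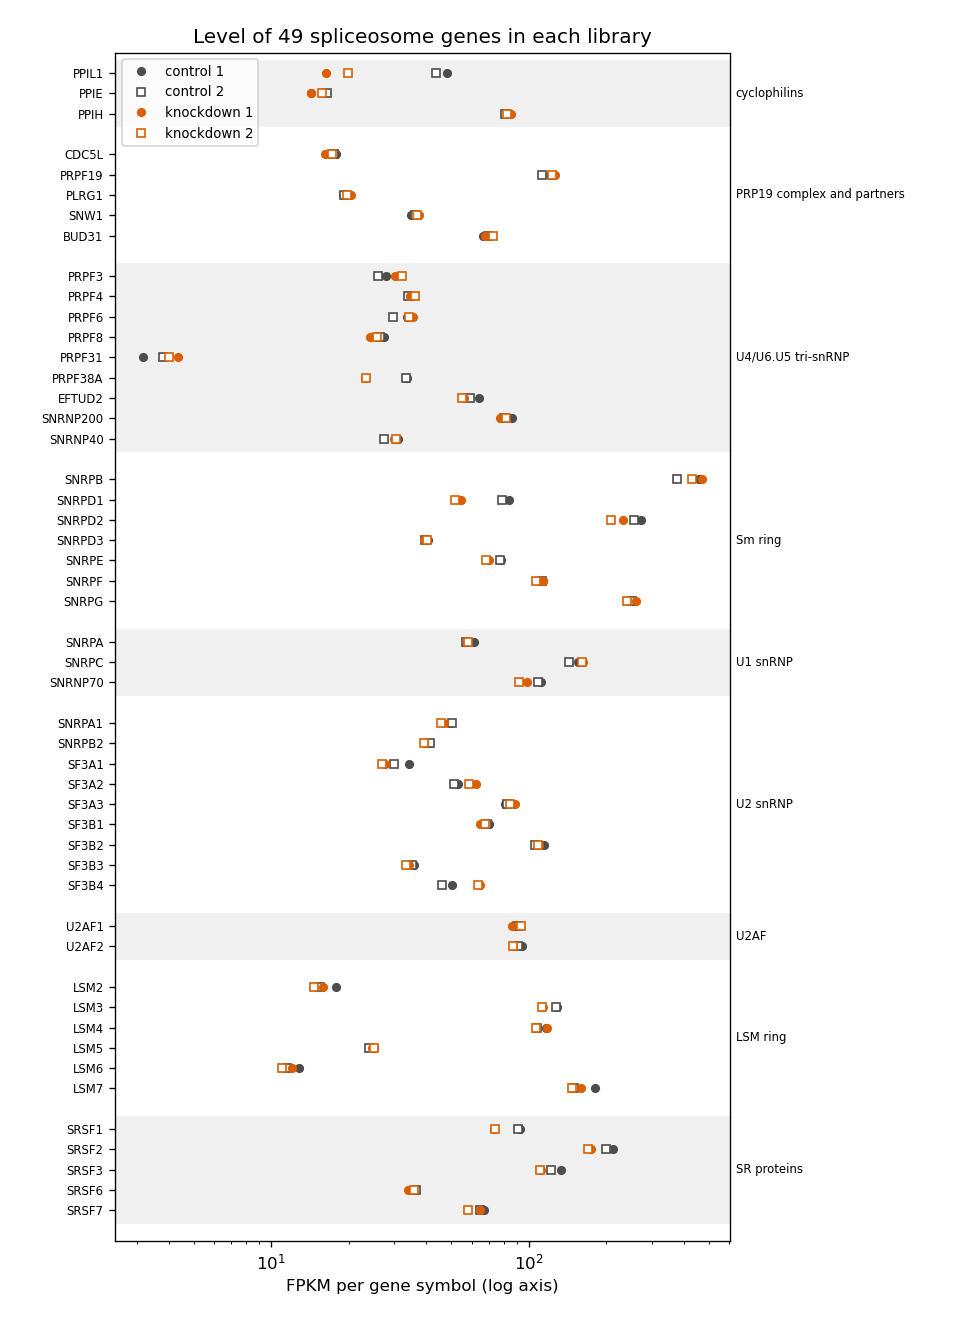
FPKM of each of the 49 spliceosome genes (rows, grouped by role) on a log axis, with filled circles for replicate 1 and open squares for replicate 2 of the control (grey) and knockdown (orange) libraries. The 4 points of most genes lie close together, whereas the knockdown points of PPIL1 (16.3 and 19.9 FPKM) lie well below its control points (48.2 and 43.7 FPKM).

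**Figure D2:**
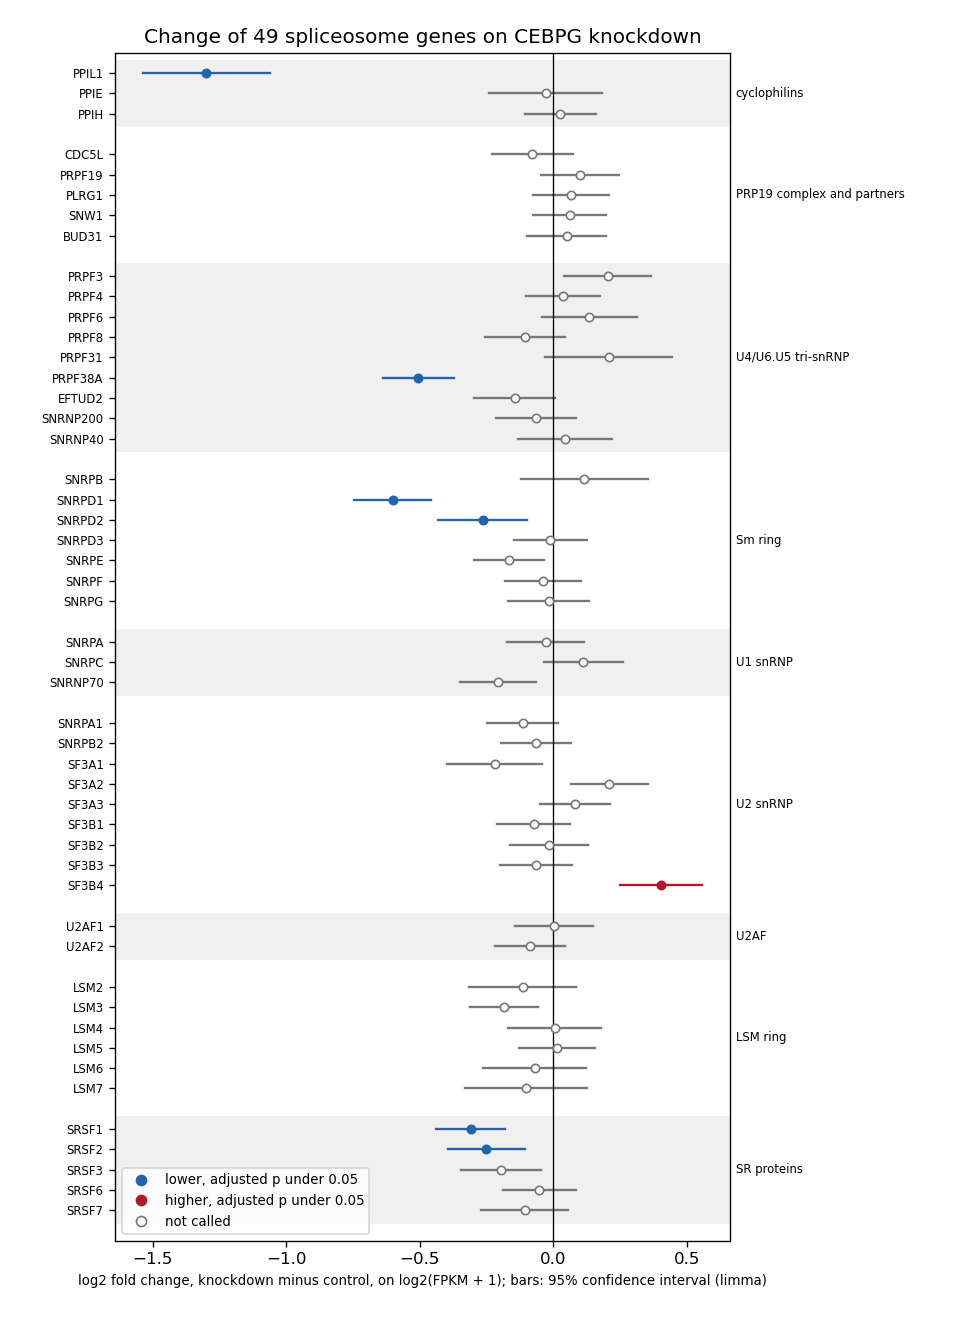
Log2 fold change of each gene (knockdown minus control, on the log2(FPKM + 1) scale) with its 95% confidence interval from limma, in the same order. The 6 downregulated genes are filled blue, SF3B4 is filled red, and the 42 open points are genes that were not called.

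PPIL1 belongs to the cyclophilins, which catalyse the turning of peptide bonds at proline, and it enters the spliceosome with SNW1. It was at 48.2 and 43.7 FPKM in controls and 16.3 and 19.9 FPKM after knockdown. The groups did not overlap, and the lower control library was above the higher knockdown library by more than the spread within either group. The mean fell from 45.9 ± 3.13 FPKM (SD, n = 2) in controls to 18.1 ± 2.54 FPKM (SD, n = 2). The change was -1.30 on the log2 scale (standard error, SE, 0.0996, limma, adjusted p = 0.000998). PPIL1 was placed at the head of the set with its earlier value in these libraries known, so this describes its size. It was the only member past the fold threshold of the study, an absolute log2 fold change over 1, taken here with an unadjusted p under 0.05, which 0.602% of all tested genes passed.

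The other spliceosomal cyclophilins on the list were not called. PPIH, which sits on the U4/U6 proteins PRPF3 and PRPF4, was at 83.6 and 81.2 FPKM in controls and 85.2 and 82.7 FPKM after knockdown. PPIE was at 14.2 and 16.5 FPKM in controls and 14.2 and 15.8 FPKM after knockdown. Their groups overlapped, with log2 fold changes of 0.027 for PPIH (95% interval -0.11 to 0.16) and -0.028 for PPIE (-0.24 to 0.19). SNW1, the partner of PPIL1, was at 34.9 and 36.3 FPKM in controls and 37.4 and 36.9 FPKM after knockdown (log2 fold change 0.062, limma, adjusted p = 0.476).

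PPIL1 lies on the minus strand of chromosome 6 at 36854827 to 36874803 (hg38, GENCODE 44), and its level came from a single RefSeq transcript, NM_016059. C6orf89, on the plus strand, starts inside it, and the genes share 2934 bases and 1 pair of overlapping exons. Whether counting used strand is not given in the sources used here, so reads from the shared exon could belong to either gene. C6orf89 was at 22.2 and 20.6 FPKM in controls and 22.4 and 22.2 FPKM after knockdown. Its log2 fold change of 0.06 was not called (limma, adjusted p = 0.539), and its most abundant transcript alone gave -0.19.

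The 250 bases upstream of the PPIL1 start are shown because this gene had the largest change of the set. They come from RefSeq on GRCh38.p14 and lie at chr6:36874804-36875053, minus strand, with CCAAT boxes on either strand in capitals:
PPIL1: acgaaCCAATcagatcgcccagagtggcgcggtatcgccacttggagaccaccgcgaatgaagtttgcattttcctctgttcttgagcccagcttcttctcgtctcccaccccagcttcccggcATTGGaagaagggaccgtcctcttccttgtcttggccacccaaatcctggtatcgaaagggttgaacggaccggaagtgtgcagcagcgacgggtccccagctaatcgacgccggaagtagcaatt

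Motifs were searched on both strands in the windows from 250 bases before to 50 bases after each start, which were at hand for 43 of the 49 members. A gene can have several windows, so members with a match in any of theirs are set beside all 27305 genes read the same way, and single windows beside all 35116 windows. The core of the CEBP-ATF response element, TGATGNAA, was found for 3 members (6.98%) and 4.46% of all genes, which is 4 of the 52 member windows (7.69%) and 3.62% of all windows. Among the called members it was found for SNRPD2 only, and not in the PPIL1 window. TTGCNNAA, a loose pattern of CEBP sites, was found for 1 member (2.33%), in 1 window, against 12.7% of all genes and 10.5% of all windows. TGACGTCA and TGACGCAA were each found for 1 member, in 1 window, against 2.25% and 0.648% of all genes and 1.85% and 0.513% of all windows. CCAAT was found for 15 members (34.9%) and 39.7% of all genes, which is 15 member windows (28.8%) and 34.6% of all windows, and PPIL1, PRPF38A and SNRPD2 were the called members that held it. No window was at hand for SNRPD1 and SRSF2. A match is a sequence of letters only, and binding was not measured here.

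The PRP19 complex and its partners stabilise the catalytic centre. None of these 5 members was called, where 20.9% of all tested genes were. PRPF19, its ubiquitin ligase, was at 121 and 112 FPKM in controls and 127 and 124 FPKM after knockdown (log2 fold change 0.10, limma, adjusted p = 0.286). CDC5L, a scaffold of the complex, was at 17.9 and 17.5 FPKM in controls and 16.2 and 17.2 FPKM after knockdown. The 5 log2 fold changes ran from -0.08 for CDC5L to 0.10 for PRPF19, with BUD31 at 0.05 and the WD40 protein PLRG1 at 0.07. The groups of 4 of these 5 genes did not overlap, against 64.8% of all tested genes.

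Of the 9 genes grouped here with the tri-snRNP, PRPF38A alone was called (11.1%, against 20.9% of all tested genes). PRPF38A acts when the assembled complex is activated. It was at 33.5 and 33.2 FPKM in controls and 23.2 and 23.3 FPKM after knockdown. The replicates almost coincided and the groups lay far apart. Its mean fell from 33.4 ± 0.223 FPKM (SD, n = 2) in controls to 23.2 ± 0.0403 FPKM (SD, n = 2), with a log2 fold change of -0.50 (SE 0.0566, limma, adjusted p = 0.00271). The call held without each library in turn.

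The large U5 proteins were not called. PRPF8, which holds the catalytic RNA, was at 27.3 and 26.4 FPKM in controls and 24.1 and 25.7 FPKM after knockdown (log2 fold change -0.10). SNRNP200, the helicase that unwinds U4 from U6, was at 86.2 and 80.3 FPKM in controls and 77.4 and 81.7 FPKM after knockdown (-0.06). EFTUD2, the GTPase of U5, was at 64.1 and 59.1 FPKM in controls and 56.3 and 54.8 FPKM after knockdown (log2 fold change -0.14, limma, adjusted p = 0.146), and scaling to one sum brought it to an adjusted p of 0.0359 (limma). The log2 fold changes of PRPF3 (0.20) and PRPF31 (0.21), both U4/U6 proteins, were the highest of the group and were not called (limma, adjusted p = 0.0767 and 0.182). PRPF31 had the lowest level of the set, 3.18 to 4.35 FPKM over the 4 libraries. PRPF6, which bridges U5 to U4/U6, PRPF4 and the U5 protein SNRNP40 had log2 fold changes of 0.14, 0.04 and 0.04 and were not called.

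PRPF38A lies on chromosome 1 at 52404602 to 52420836 on the plus strand (hg38, GENCODE 44), head to head with ORC1, a subunit of the replication origin complex. The starts are 179 bases apart. ORC1 was at 33.2 and 32.6 FPKM in controls and 31.2 and 29.4 FPKM after knockdown, with a log2 fold change of -0.12 (limma, adjusted p = 0.209). The 178 bases between the starts are shown because they are common to a gene that fell and a gene that was not called, at chr1:52404424-52404601, plus strand, with the CCAAT box in capitals:
PRPF38A to ORC1: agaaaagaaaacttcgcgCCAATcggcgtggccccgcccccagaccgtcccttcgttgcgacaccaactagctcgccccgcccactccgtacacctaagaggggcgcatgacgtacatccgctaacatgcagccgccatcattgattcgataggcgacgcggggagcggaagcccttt

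Near starts on the other strand were counted over the whole set, whether head to head or overlapping, a look added after the values had been seen. A protein-coding gene on the other strand started within 1000 bases of 17 of the 49 members, and 12 of these neighbours were tested. Of the 12, AVL9 beside LSM5 was higher (log2 fold change 0.27, limma, adjusted p = 0.0323) and GEMIN6 beside SRSF7 was lower (-0.21, 0.0488), although neither member was called. These 2 of 12 stand against 20.9% of all tested genes. The AVL9 and GEMIN6 calls were each lost without any 1 of the 4 libraries. QPCTL, the neighbour of SNRPD2, had a log2 fold change of 0.0006 (limma, adjusted p = 0.996).

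Of the 7 Sm ring genes 2 were lower (28.6%, against 9.99% of all tested genes), SNRPD1 and SNRPD2, whose proteins pair with each other before the ring closes. SNRPD1 was at 83.5 and 78.8 FPKM in controls and 54.4 and 51.9 FPKM after knockdown. The groups did not overlap, and the mean fell from 81.1 ± 3.32 FPKM (SD, n = 2) in controls to 53.1 ± 1.70 FPKM (SD, n = 2). The change was -0.60 on the log2 scale (SE 0.0608, limma, adjusted p = 0.00202), and it was called without each library in turn. SNRPD2 was at 272 and 257 FPKM in controls and 231 and 209 FPKM after knockdown. Its log2 fold change of -0.26 was nearer to the threshold (limma, adjusted p = 0.0399) and was not called without control 1, without knockdown 1 or without knockdown 2.

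The other 5 Sm genes were not called. SNRPB, which gives the SmB proteins, had the highest level of the set at 457 and 377 FPKM in controls and 469 and 431 FPKM after knockdown. Its groups overlapped, and its log2 fold change was 0.12 (limma, adjusted p = 0.436). SNRPE was at 78.4 and 77.2 FPKM in controls and 70.1 and 68.3 FPKM after knockdown (-0.17, 0.0747). SNRPE was called with median-ratio scaling (limma, adjusted p = 0.0324) and with columns brought to one sum (0.0243). SNRPD3, SNRPF and SNRPG had log2 fold changes of -0.01, -0.04 and -0.02, and their groups overlapped. Although the 7 proteins stand in equal number in a ring, their transcript levels per length spanned from about 40 FPKM for SNRPD3 (39.2 to 40.8) to the 377 to 469 FPKM of SNRPB.

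None of the 3 genes of the U1 snRNP was called, where 20.9% of all tested genes were. SNRNP70, the U1 70K protein, was at 112 and 108 FPKM in controls and 98.1 and 92.0 FPKM after knockdown. Its log2 fold change of -0.21 came close to the threshold (limma, adjusted p = 0.0519), and the adjusted p was 0.0217 with median-ratio scaling and 0.00981 with columns brought to one sum (limma). SNRPC, the U1 protein at the 5′ splice site, was at 156 and 144 FPKM in controls and 162 and 161 FPKM after knockdown (0.11, limma, adjusted p = 0.231). SNRPA had a log2 fold change of -0.03, with 57.1 to 61.1 FPKM over the 4 libraries.

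SF3B4 was the member that rose. It encodes a U2 snRNP protein that contacts pre-mRNA upstream of the branch point. It was at 50.4 and 46.2 FPKM in controls and 65.0 and 63.4 FPKM after knockdown. Both knockdown libraries were above both control libraries, and the mean rose from 48.3 ± 2.96 FPKM (SD, n = 2) in controls to 64.2 ± 1.13 FPKM (SD, n = 2). The change was 0.40 on the log2 scale (SE 0.0642, limma, adjusted p = 0.00826). Without knockdown 1 it was 0.39 and not called (limma, adjusted p = 0.0645). SF3B4 lies on chromosome 1 at 149923317 to 149927803, minus strand. Its upstream 250 bases (chr1:149927804-149928053), shown as those of the gene with the opposite direction, held none of the 5 motifs and so no capitals:
SF3B4: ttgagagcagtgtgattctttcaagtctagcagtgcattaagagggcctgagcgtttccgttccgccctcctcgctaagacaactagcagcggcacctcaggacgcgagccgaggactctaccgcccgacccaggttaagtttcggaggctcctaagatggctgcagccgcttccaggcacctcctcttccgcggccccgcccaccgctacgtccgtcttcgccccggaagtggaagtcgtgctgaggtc

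The other 8 of the 9 U2 genes were not called, so 11.1% were called, against 20.9% of all tested genes. The SF3A subunits differed in sign. SF3A2 was at 53.3 and 51.1 FPKM in controls and 62.3 and 58.8 FPKM after knockdown (log2 fold change 0.21, limma, adjusted p = 0.0519). SF3A1 was at 34.1 and 30.0 FPKM in controls and 27.7 and 27.0 FPKM after knockdown (-0.22, limma, adjusted p = 0.082). For SF3A3 it was 0.08. With median-ratio scaling SF3A1 was called lower and SF3A2 higher (limma, adjusted p = 0.0356 and 0.0319), and so they were with columns brought to one sum (0.024 and 0.0265). SF3A1 was also called without control 2 (-0.31, limma, adjusted p = 0.0281), and it was -0.13 without control 1. SF3B1, which clamps the branch point adenosine, was at 70.2 and 68.9 FPKM in controls and 64.5 and 67.6 FPKM after knockdown (-0.07, limma, adjusted p = 0.391). SF3B2, SF3B3, SNRPA1 and SNRPB2 had log2 fold changes of -0.02, -0.06, -0.12 and -0.06.

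U2AF, which reads the end of the intron, was not called in either subunit, where 20.9% of all tested genes were called. U2AF2 was at 93.9 and 90.7 FPKM in controls and 86.9 and 86.8 FPKM after knockdown (-0.09, limma, adjusted p = 0.299). U2AF1 was at 88.9 and 90.4 FPKM in controls and 86.3 and 93.5 FPKM after knockdown (0.0027, limma, adjusted p = 0.979). U2AF1 has a near-identical copy in the hg38 assembly, U2AF1L5. That symbol was looked up and had no value in the deposited table, so the level of U2AF1 is uncertain.

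None of the 6 LSM genes of the set was called, where 20.9% of all tested genes were. LSM3 came closest, at 129 and 128 FPKM in controls and 113 and 112 FPKM after knockdown (log2 fold change -0.19, limma, adjusted p = 0.0519), and it was called lower after median-ratio scaling (limma, adjusted p = 0.0206). It was the only LSM gene of the 6 whose groups did not overlap, against 64.8% of all tested genes. LSM2, LSM4, LSM5, LSM6 and LSM7 had log2 fold changes of -0.12, 0.0056, 0.01, -0.07 and -0.10.

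The SR proteins bind exonic enhancers and recruit U1 and U2AF. In all 5 SR genes of the set both knockdown libraries were below both control libraries, against 30.5% of all tested genes. Among the other SR proteins and their kinases this was so for 7 of 16 tested genes (43.8%). Of the 5 SR genes of the set, 2 were called lower, against 9.99% of all tested genes. SRSF1 was at 92.2 and 90.7 FPKM in controls and 73.0 and 74.2 FPKM after knockdown. It changed by -0.31 on the log2 scale (SE 0.0543, limma, adjusted p = 0.0114), and the call was lost without knockdown 1 and without knockdown 2. SRSF2 was at 213 and 199 FPKM in controls and 175 and 170 FPKM after knockdown. It changed by -0.25 (limma, adjusted p = 0.0305), and the call was lost without control 1, without knockdown 1 and without knockdown 2. SRSF3 was at 133 and 122 FPKM in controls and 112 and 111 FPKM after knockdown (-0.19, limma, adjusted p = 0.0713). SRSF3 was called with median-ratio scaling (limma, adjusted p = 0.021), with columns brought to one sum (0.0102) and without control 2 (0.0355). SRSF7 and SRSF6 had log2 fold changes of -0.11 and -0.05 and were not called.

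SR genes make noncoding transcripts beside the coding ones, often by including an exon with an early stop, and RefSeq lists these as separate rows. SRSF1 NM_006924, the main coding row, was at 68.6 and 66.2 FPKM in controls and 50.6 and 47.7 FPKM after knockdown. SRSF1 NR_034041, a noncoding row, was at 10.2 and 9.66 FPKM in controls and 11.1 and 11.02 FPKM after knockdown. The noncoding row thus held 11.1% and 10.7% of SRSF1 in the control and 15.2% and 14.9% in the knockdown libraries. In SRSF2, the coding row NM_001195427 was at 148 and 140 FPKM in controls and 117 and 115 FPKM after knockdown, and the noncoding row NR_036608 held 6.12% to 8.07% in the 4 libraries with overlapping groups. In SRSF3, the coding row NM_003017 was at 98.7 and 85.3 FPKM in controls and 73.1 and 77.7 FPKM after knockdown. Its noncoding row NR_036610 was at 34.6 and 36.9 FPKM in controls and 38.7 and 33.4 FPKM after knockdown, and its groups overlapped. None of these rows was called, as the adjusted p over all transcripts was 0.084 for NM_006924, 0.371 for NR_034041, 0.105 for NM_001195427 and 0.222 for NM_003017 (limma). How reads were divided between rows of a gene is not given in the sources used here.

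**Figure D3:**
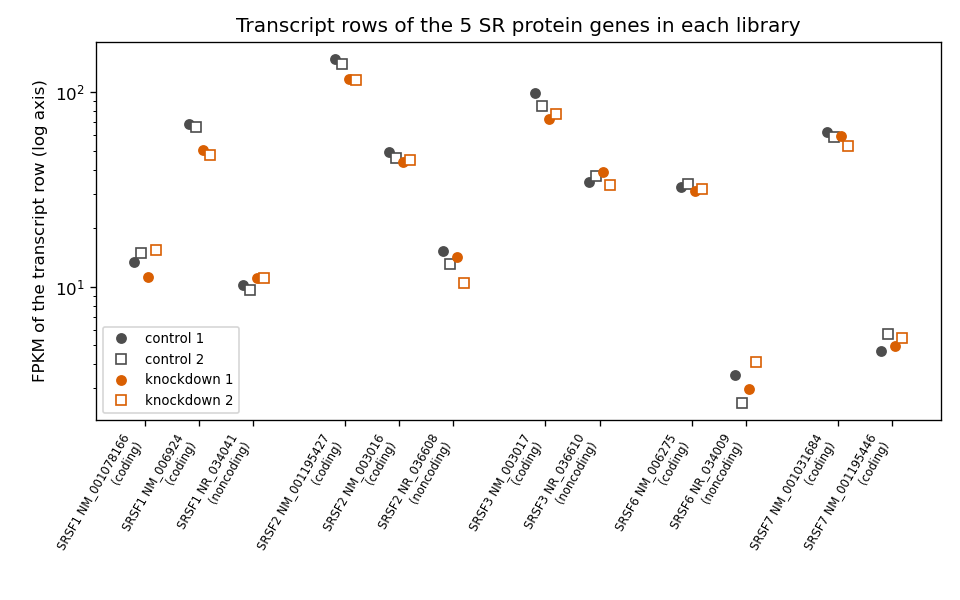
FPKM (log axis) of each RefSeq row of the 5 SR genes in the 2 control (grey) and 2 knockdown (orange) libraries, with circles for replicate 1 and squares for replicate 2. The knockdown points lie below the control points for SRSF1 NM_006924 (47.7 and 50.6 against 66.2 and 68.6 FPKM) and above them for the noncoding SRSF1 NR_034041.

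Over the whole set, 26 members had 1 transcript row and 23 had 2 to 7. Of the 90 rows, 79 were tested and 0 had an adjusted p under 0.05 (limma), where 0.158% of all 15795 tested transcripts did. An unadjusted p under 0.05 was found for 18 of the 79 rows and for 3213 of all transcripts. PPIL1 NM_016059 had the lowest adjusted p of these rows, 0.0632 (limma), so its call held for genes and not for transcripts. After scaling, 2 (median-ratio) and 4 (one sum) of the rows were called, where 0.887% and 1.19% of all transcripts were.

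To place the 49 genes among the rest of the splicing machinery, 144 other splicing genes in 9 lists were read, of which 143 were found and 141 tested. Of the 141, 30 were downregulated and 1 was upregulated at an adjusted p under 0.05 (limma), which is 21.3% and 0.709% against 9.99% and 10.9% of all tested genes. The median log2 fold change was -0.07. The number called was 8 without knockdown 1 and 6 without knockdown 2, where 7.39% and 7.90% of all genes were called, so that the share of these lists was then below that of all genes.

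Among other tri-snRNP and B-complex genes, 5 of 14 were lower (35.7%, against 9.99% of all tested genes). The strongest was DDX23, the helicase of the 5′ splice site handover, at 58.4 and 55.9 FPKM in controls and 35.5 and 33.1 FPKM after knockdown (log2 fold change -0.72, limma, adjusted p = 0.0014). SNRNP27 was also lower (-0.37, limma, adjusted p = 0.0101), a call lost without knockdown 1. Of 18 other U1 and U2 genes 4 were lower (22.2%), among them RBM17 at -0.36 (limma, adjusted p = 0.0115), a call lost without knockdown 1, and the helicase DHX15 at -0.32 (0.0111), lost without knockdown 1 and without knockdown 2.

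The list of snRNP assembly factors also held LSM genes outside the set. Of its 18 genes 5 were lower (27.8%, against 9.99% of all tested genes). COIL, the coilin of Cajal bodies where snRNPs mature, was at 20.9 and 20.6 FPKM in controls and 12.3 and 13.6 FPKM after knockdown (-0.64, limma, adjusted p = 0.0026). PRMT5, which methylates Sm proteins including SmD1, was at 96.7 and 90.0 FPKM in controls and 77.8 and 73.6 FPKM after knockdown (-0.30, limma, adjusted p = 0.021), a call lost without knockdown 1 and without knockdown 2.

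The hnRNP list had 7 of 25 lower (28%, against 9.99% of all tested genes), including HNRNPA2B1 at 343 and 343 FPKM in controls and 244 and 241 FPKM after knockdown (-0.50, limma, adjusted p = 0.0026). PCBP1, a poly(C)-binding protein, was at 213 and 201 FPKM in controls and 142 and 139 FPKM after knockdown (-0.55, limma, adjusted p = 0.0023). The DDX23, COIL, HNRNPA2B1 and PCBP1 calls held without each library in turn.

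In the minor spliceosome, which removes a rare class of introns, 3 of 10 genes were lower and 1 was higher, against 9.99% and 10.9% of all tested genes. SNRNP48 was the upregulated gene, at 13.2 and 14.4 FPKM in controls and 16.6 and 18.9 FPKM after knockdown (0.34, limma, adjusted p = 0.0312), a call lost without control 1 and without knockdown 2. ZRSR2, which reads the 3′ splice site there, was lower (-0.46, limma, adjusted p = 0.0251), a call lost without control 1, without knockdown 1 and without knockdown 2.

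Other lists held fewer calls. Of 13 tested other cyclophilins 2 were lower (15.4%), PPIG (-0.28, limma, adjusted p = 0.0207) and PPID (-0.24, 0.035). The PPIG call was lost without knockdown 1 and without knockdown 2, and the PPID call also without control 2. PPIA, the most abundant cyclophilin read, was at 343 and 311 FPKM in controls and 314 and 292 FPKM after knockdown and was not called (-0.11, limma, adjusted p = 0.315). Of 16 other PRP19 and catalytic-stage genes 2 were lower, and of 16 other SR proteins and kinases 2 were lower (12.5% in either list, against 9.99% of all tested genes). In the exon junction complex 0 of 11 tested genes were called (limma), against 20.9% of all tested genes. An unadjusted p under 0.05 was found for 1 of the 11, RBM8A, and for 4057 of all tested genes (37%).

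**Figure D4:**
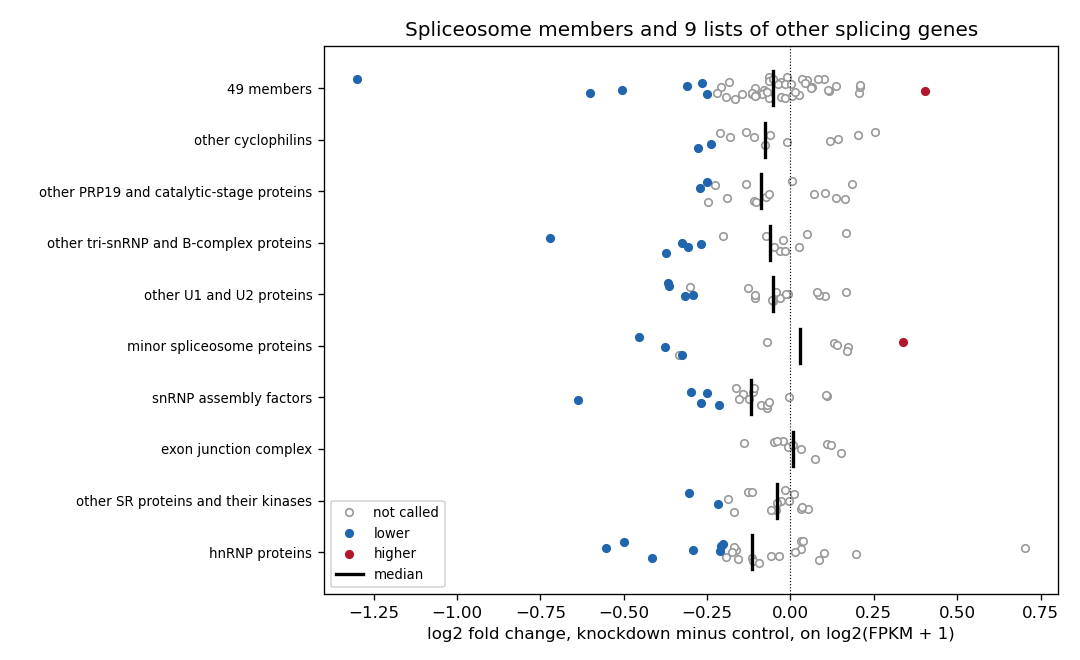
Log2 fold change (knockdown minus control) of each tested gene in the 49-gene set and in the 9 lists of other splicing genes, with filled blue points for downregulated, filled red for upregulated and open points for genes not called, and a black bar at each median. Of the filled points outside the 49 genes, 30 are blue and 1 is red.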

How the data were processed

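RNA-seq of 2 control and 2 CEBPG knockdown libraries labelled NB4 was analysed. In the study methods and the submitters' processing notes, reads were filtered and mapped (HISAT2 2.0.5, genome build hg38). The authors deposited FPKM values for 29265 RefSeq transcripts in 4 columns. The quantifier and annotation release are not given in the sources used here. Entries without a value (183) or without a symbol (164, with 0.25% of FPKM) were left out, and 28918 transcripts were summed to 16504 symbols. Depth was unknown: among 1817 low genes, the commonest ratio between control libraries covered only 1.27%, reads could not be rebuilt from the steps, and no counting interval can be given.

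The 10968 genes averaging 1 FPKM or more were tested in limma 3.58.1 (R 4.3.3) on log2(FPKM + 1), with a mean trend, 2-sided, and Benjamini-Hochberg adjustment over all tested genes, after a test on simulated data. Fold changes on this scale understate changes of low genes. The count-based test of the study needs counts and was not used. Named were any member, up to 3 called genes at either end of each other list, CEBPG, markers and C6orf89, the gene on the opposite strand starting nearest to PPIL1. Other neighbours on the opposite strand, PPIA and RBM8A were named after their values were seen. The members and lists were chosen with earlier results of these data known. Positions are from GENCODE 44 (hg38) and upstream sequences from RefSeq (GRCh38.p14, 43 of 49 members matched). Protein sequences were not used here. Alternatives were another pseudocount, other filters and scalings, a replicate block, no mean trend, the most abundant transcript, and each library left out.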

Additional observations from a re-analysis of the deposited data

How the results depend on the processing

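Precision was limited by 2 libraries per group, and depth was unknown. With 12 alternatives each in the comparison of genes, the PPIL1, PRPF38A and SNRPD1 calls held throughout. Their log2 fold changes were -1.43 to -1.16, -0.53 to -0.50 and -0.64 to -0.56. In the separate fit of transcripts, PPIL1 NM_016059, PRPF38A NM_032864 and SNRPD1 NM_006938 were not called (limma, adjusted p = 0.0632, 0.0688 and 0.0642). SNRPD2 and SRSF2 were not called under 6 of 12, SRSF1 under 2 and SF3B4 under 1. The number of members called was 13 with median-ratio scaling, 14 with columns brought to one sum and 14 with a replicate block, against 7, where 24.6%, 24.4% and 31.4% of all genes were called against 20.9%. It was 3 to 9 when a library was left out, where 7.39% to 17.6% of all genes were called. Replicate numbers mark nothing in the labels, and same-numbered libraries deviated together with a correlation of 0.101, so the block is given here only. The other splicing genes called numbered 11 with no filter, 49 with a replicate block and 18 with no mean trend, against 31, where 5.34%, 31.4% and 17.2% of all genes were called, and 6 to 22 when a library was left out. Member transcripts called numbered 2 with median-ratio scaling, 4 with columns brought to one sum, where 0.887% and 1.19% of all transcripts were called, and 0 when any library was left out. The members' median was -0.0699 to -0.0136 when a library was left out. Where a cause is not given by the setting itself, the cause was not tested.

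Some small changes turned sign. With the most abundant transcript alone, the log2 fold change was -0.1881 for C6orf89, 0.3226 for EFTUD2, -0.0092 for LSM4, -0.0113 for PLRG1, 0.4938 for PPIE, -0.0225 for QPCTL and -0.041 for SNRPB. With median-ratio scaling it was -0.007 for LSM4, -0.0104 for QPCTL and -0.0099 for U2AF1, and with columns brought to one sum -0.0164 for LSM4, -0.0066 for LSM5, -0.0188 for QPCTL and -0.0193 for U2AF1. Leaving out a library gave -0.0006 to 0.1003 for BUD31, -0.0646 to 0.0758 for LSM4, -0.0135 to 0.043 for LSM5, -0.1431 to 0.0049 for LSM6, -0.2386 to 0.0321 for LSM7, -0.1259 to 0.0702 for PPIE, -0.0378 to 0.0391 for QPCTL and -0.0699 to 0.0391 for SF3B2. It gave -0.0433 to 0.1317 for SNRNP40, -0.0766 to 0.0187 for SNRPA, -0.0225 to 0.2554 for SNRPB, -0.0337 to 0.0128 for SNRPD3, -0.0872 to 0.0104 for SNRPF, -0.0771 to 0.0427 for SNRPG and -0.0545 to 0.0599 for U2AF1. None of these genes was called in the comparison of genes.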

Other observations

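Transcript rows of a few members had larger differences between the groups than the gene total. EFTUD2 NM_004247 held 77.1% and 63.5% of the gene in controls and 95% and 99.8% after knockdown, where it was at 53.5 and 54.7 FPKM. EFTUD2 NM_001258354 was at 6.84 and 15.0 FPKM in controls, at 1.82 FPKM in knockdown 1 and listed at 0 in knockdown 2 (log2 fold change -2.74, limma, adjusted p = 0.154). SNRPD2 NM_177542 was at 9.04 and 11.6 FPKM in controls and 4.10 and 3.66 FPKM after knockdown (-1.21, 0.0818). SNRPC NR_029472, a noncoding row, was at 3.39 and 1.55 FPKM in controls and 5.33 and 9.49 FPKM after knockdown (1.28, 0.205). None of these rows was called.

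Single libraries set some rows. U2AF1 NM_001025203 was at 17.6 and 20.1 FPKM in controls and 17.7 FPKM in knockdown 2, but was listed at 0 in knockdown 1, where U2AF1 NM_006758 was at 82.3 FPKM against 67.2 to 72.6 FPKM in the other libraries. PPIE NM_006112 was at 5.07 FPKM in control 2 and at 9.65 to 10.98 FPKM in the other libraries. HNRNPH2 was at 13.2 FPKM in control 1 and at 30.2 to 33.4 FPKM in the other libraries. DDX39B, a splicing helicase that every cell uses, was listed at 0 in control 2 and knockdown 1 and at 0.328 and 0.477 FPKM in control 1 and knockdown 2. These genes were singled out after their values were seen.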
